A study of Mus musculus with 6 samples.

Results

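The Zfp genes are mouse genes named "zinc finger protein" with a number, and most encode proteins that grip DNA with a row of C2H2 zinc fingers, short loops in which 2 cysteines and 2 histidines hold a zinc ion. The genes described here were selected on their mean raw count over the 6 libraries, which had to be 50 or more: 125 of the 376 rows with such a symbol, among 53733 named rows. The selection took no regard of the 2 groups, so the difference between groups was not used.

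The cells were an acute myeloid leukaemia line made from murine foetal liver cells with 2 retroviral vectors. One vector drives luciferase and the fusion oncogene MLL-AF9 at all times. The other carries DsRED and FLT3-ITD, the receptor tyrosine kinase FLT3 with an internal tandem duplication that keeps it active, behind a TRE-tight promoter that needs doxycycline. In the OFF group, 3 mice of the immunodeficient NSG strain were injected with the line through the tail vein, had 96 h of engraftment on doxycycline and then 48 h on regular chow and water. In the ON group, 3 NSG mice with the same cells and engraftment stayed on doxycycline for those 48 h. Both groups therefore carry MLL-AF9, a single line stands for the disease, and each library holds the viable leukaemic cells sorted from the marrow of 1 mouse. The age of the mice is not given in the sources used here.

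In many of these proteins a KRAB box precedes the fingers. It binds Trim28 (KAP1), which brings Setdb1, HP1 proteins and histone deacetylases to the DNA site, and this machinery is best known for silencing retroelements and for protecting imprinted loci. Others have no KRAB box and work as activators, as subunits of chromatin complexes, or on RNA and ribosomes rather than on DNA. KRAB genes often lie in tandem clusters of near copies, which matters in a 3′ assay, since reads are counted only near the end of each mRNA.

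Totals were 8729496 to 9329917 counts in the OFF libraries and 8347588 to 8810022 in the ON libraries, and 1 count stood for no more than 0.124 CPM (counts scaled to library size, with TMM factors). All 125 genes were tested. Of the OFF libraries, replicate 3 stood apart from the other 2 on the second principal component of all rows. Myeloid markers were present in every library, with summed levels of 3032 to 3253 CPM in OFF and 1513 to 1762 CPM in ON. Most of these sums came from Elane (means of 1626 CPM in OFF and 840 CPM in ON) and Mpo (803 and 301 CPM). Both rows of Itgam were counted in them. Of the myeloid markers, 5 of 7 tested were higher in OFF. Spi1 and Cebpa were not called by edgeR's test (adjusted p = 0.135 and 0.794), and Kit was not tested. Erythroid markers summed to 370 to 598 CPM in OFF and 92.3 to 132 CPM in ON, and 4 of 4 tested were higher; their part in the results below was not tested. B, T and NK cell, megakaryocyte and stromal markers stayed at or under 1.98 CPM in sum in every library, with the stromal marker Lepr at 0 counts throughout, and endothelial markers summed to 7.13 to 10.4 CPM in OFF and 5.21 to 9.23 CPM in ON. In a sorted bulk sample, fewer cells of a type and less RNA per cell cannot be told apart.

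Promoters are shown for the 3 largest rises and the 3 largest falls that had a matched RefSeq entry, because their CpG content is compared further on. No promoter was matched for Zfp516, so it is neither shown nor compared. Each promoter runs from 250 bases before to 50 after the start of transcription in RefSeq's GRCm38.p6, and every CpG is in capitals. The first 3 belong to genes higher in OFF.
Zfp773, chr7:7136706-7137005, minus strand: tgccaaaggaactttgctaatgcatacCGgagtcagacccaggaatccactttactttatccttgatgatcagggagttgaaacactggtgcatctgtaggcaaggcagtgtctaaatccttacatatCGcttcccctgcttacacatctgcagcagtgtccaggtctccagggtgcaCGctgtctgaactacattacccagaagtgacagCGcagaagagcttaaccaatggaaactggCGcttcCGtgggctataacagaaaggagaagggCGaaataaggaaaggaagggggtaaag
Zfp523, chr17:28176946-28177245, plus strand: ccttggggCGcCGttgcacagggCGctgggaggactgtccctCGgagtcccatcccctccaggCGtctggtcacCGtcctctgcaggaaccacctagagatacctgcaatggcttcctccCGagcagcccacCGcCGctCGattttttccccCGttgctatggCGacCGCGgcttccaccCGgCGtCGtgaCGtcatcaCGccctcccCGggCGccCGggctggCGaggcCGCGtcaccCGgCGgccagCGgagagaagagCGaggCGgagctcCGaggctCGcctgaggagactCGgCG
Zfp994, chr17:22225565-22225864, minus strand: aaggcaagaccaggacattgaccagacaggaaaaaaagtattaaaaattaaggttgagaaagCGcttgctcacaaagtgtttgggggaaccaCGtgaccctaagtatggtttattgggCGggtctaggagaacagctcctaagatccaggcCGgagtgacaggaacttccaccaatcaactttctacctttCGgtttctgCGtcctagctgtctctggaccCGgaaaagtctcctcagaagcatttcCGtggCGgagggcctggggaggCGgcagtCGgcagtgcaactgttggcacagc
The next 3 belong to genes lower in OFF.
Zfp131, chr13:119790683-119790982, minus strand: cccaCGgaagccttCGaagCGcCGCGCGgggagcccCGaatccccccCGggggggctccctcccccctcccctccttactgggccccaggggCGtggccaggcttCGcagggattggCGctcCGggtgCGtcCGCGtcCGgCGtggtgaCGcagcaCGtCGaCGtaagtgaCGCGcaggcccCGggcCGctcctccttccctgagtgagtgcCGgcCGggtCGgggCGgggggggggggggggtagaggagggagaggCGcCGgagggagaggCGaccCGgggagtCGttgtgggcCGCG
Zfp770, chr2:114201383-114201682, minus strand: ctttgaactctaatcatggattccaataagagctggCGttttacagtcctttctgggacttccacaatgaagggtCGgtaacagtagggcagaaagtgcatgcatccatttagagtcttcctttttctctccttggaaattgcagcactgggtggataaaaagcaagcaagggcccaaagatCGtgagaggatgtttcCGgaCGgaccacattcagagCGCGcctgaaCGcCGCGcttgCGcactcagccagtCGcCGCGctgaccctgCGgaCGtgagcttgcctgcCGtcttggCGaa
Zfp800, chr6:28397956-28398255, minus strand: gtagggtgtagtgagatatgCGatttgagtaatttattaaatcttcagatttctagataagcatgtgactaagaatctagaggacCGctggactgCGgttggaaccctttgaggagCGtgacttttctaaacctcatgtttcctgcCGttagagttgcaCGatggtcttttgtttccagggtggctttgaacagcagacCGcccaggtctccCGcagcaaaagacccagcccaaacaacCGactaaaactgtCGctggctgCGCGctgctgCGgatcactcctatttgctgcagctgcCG

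Of the 125 genes, 18 were higher and 18 lower in OFF at an adjusted p of 0.05 (edgeR's quasi-likelihood test, Benjamini-Hochberg over 13652 rows), and 89 did not pass. This was 28.8% of the genes, against 34.8% of all tested rows and 38.7% of the 9784 rows with as many counts. By direction, 14.4% rose and 14.4% fell, against 18.8% and 19.9% of rows with as many counts. Both shares were thus below those of such rows, without a test of that difference. Such rows had a mean count of 50 or more but were not matched in depth. With 100 or more mean counts, 40.3% of 62 genes passed, as did 40.3% of all rows at that depth. With 50 to 99, 17.5% of 63 genes passed, against 33.0% of all such rows. Over the 125 genes, the median log2 fold change (OFF minus ON) was 0.09, with quartiles of -0.23 and 0.36, against -0.01 over rows with as many counts. The median was 0.0415 without OFF replicate 1 and 0.0467 without OFF replicate 3, and 11 genes rose and 12 fell without ON replicate 2. Only 3 of the 36 calls reached 2-fold: Zfp773 was higher, and Zfp131 and Zfp770 were lower. Among rows with as many counts, 7.48% passed and changed by at least 2-fold. In 57 genes (45.6%) the 2 groups did not overlap, against 52.1% of those rows.

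**Figure D1:**
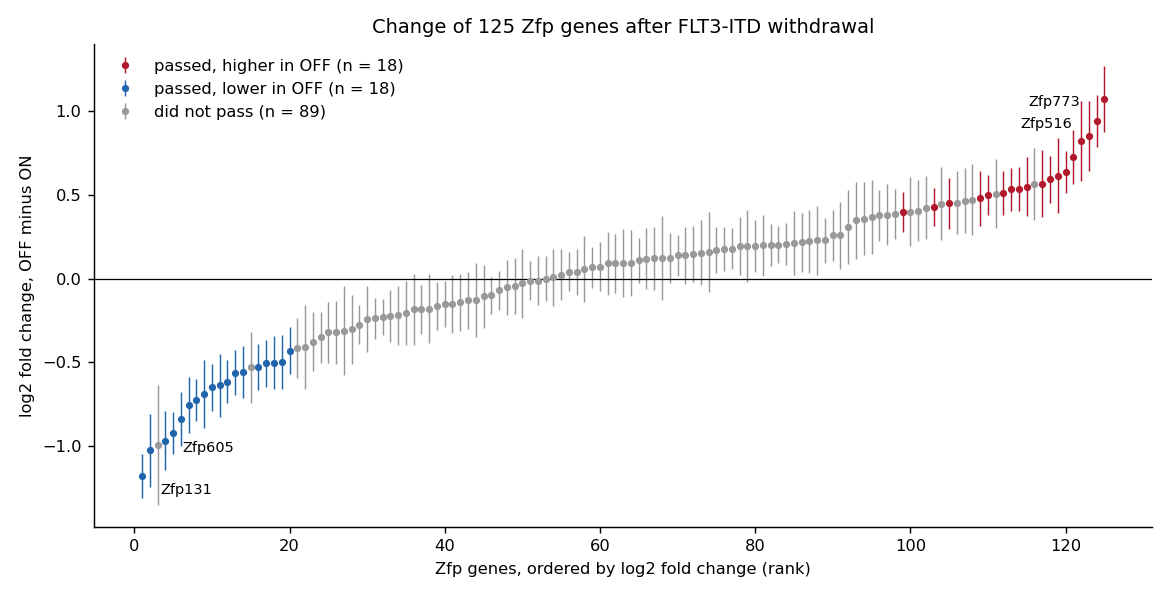
Log2 fold change (OFF minus ON, y axis) of the 125 Zfp genes in rank order (x axis), with bars of 1 SE from the fit on 3 mice per group. Red marks the 18 genes that passed higher in OFF, blue the 18 lower in OFF and grey the 89 that did not pass; the values run from -1.18 for Zfp131 to 1.07 for Zfp773, and Zfp605, with a wide bar, lies among the falls without passing.

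Among the genes that fell, Zfp131 (chromosome 13, 119765187 to 119790889, minus strand, GRCm38), a regulator with a BTB domain beside its fingers, changed most. It stood at 33.0, 37.2 and 25.6 CPM in OFF and at 70.7, 70.0 and 76.4 CPM in ON. All OFF values were far below all ON values. The fall was 2.27-fold (log2 fold change -1.18, SE 0.13, adjusted p = 1.39e-05).

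Zfp800 (chromosome 6, 28239927 to 28398005, minus strand), another C2H2 gene without the KRAB pattern, stood at 35.3, 30.6 and 25.9 CPM in OFF and at 57.7, 59.5 and 56.9 CPM in ON. The ON values lay within 3 CPM of each other and well above all OFF values (log2 fold change -0.92, SE 0.12, adjusted p = 6.34e-05). Zfp770 (chromosome 2, 114193461 to 114201469, minus strand) was less abundant, with 5.997, 4.90 and 7.70 CPM in OFF and 12.4, 9.68 and 15.9 CPM in ON. Its groups did not overlap, and the fall was 2.04-fold (log2 fold change -1.03, SE 0.22, adjusted p = 0.00204).

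Zfp771 and Zfp664 also fell. Zfp771 had 8.66, 6.79 and 9.24 CPM in OFF and 14.96, 14.4 and 14.9 CPM in ON (log2 fold change -0.84, SE 0.16, adjusted p = 0.00104). Zfp664 had 7.55, 7.46 and 7.70 CPM in OFF and 12.8, 14.7 and 10.8 CPM in ON (log2 fold change -0.75, SE 0.17, adjusted p = 0.00308). In both genes every OFF value was below every ON value.

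Zfp773 (chromosome 7, 7127073 to 7136755, minus strand), with the KRAB pattern, rose most. It stood at 15.4, 13.9 and 11.99 CPM in OFF and at 7.42, 4.67 and 7.57 CPM in ON, without overlap. The rise was 2.11-fold (log2 fold change 1.07, SE 0.20, adjusted p = 7.08e-04), and 13.4% of the 50-base windows near its 3′ end also occur in transcripts of other genes. Zfp516 (chromosome 18, 82910663 to 83005314, plus strand), known in mouse brown fat as an activator of Ucp1, had 20.1, 20.5 and 24.97 CPM in OFF and 12.1, 12.4 and 9.55 CPM in ON. It rose 1.92-fold (log2 fold change 0.94, SE 0.15, adjusted p = 3.03e-04), and all 3 OFF values were above 20 CPM.

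Zfp523 (chromosome 17, 28177129 to 28205886, plus strand), the mouse counterpart of human ZNF76 and a relative of Zfp143, had 8.885, 11.6 and 10.3 CPM in OFF and 4.34, 5.47 and 7.32 CPM in ON (log2 fold change 0.85, SE 0.21, adjusted p = 0.00576). Zfp143 itself, which activates promoters of many housekeeping and small nuclear RNA genes, did not pass: it had 15.99, 16.04 and 14.3 CPM in OFF and 16.7, 16.2 and 18.7 CPM in ON (log2 fold change -0.15, 95% interval -0.42 to 0.11). The KRAB genes Zfp994 and Zfp934 rose by 0.82 (SE 0.24, adjusted p = 0.0152) and 0.73 (SE 0.16, adjusted p = 0.00300) on the log2 scale; 28.8% of the windows of Zfp934 occur in other genes. The call of Zfp994 was lost in 3 of the 6 fits that leave out a mouse (without OFF replicate 2, ON replicate 1 or ON replicate 2, adjusted p up to 0.0874). The other rises named by rank were Zfp687 (0.64), Zfp513 (0.61), Zfp950 (0.59), Zfp212 (0.57) and Zfp414 (0.55). Zfp687 and Zfp414 are described further on. The remaining genes that rose lay between 0.40 and 0.54. The call of Zfp513 was lost without OFF replicate 3 (log2 fold change 0.32, adjusted p = 0.206), the library in which it was highest, and also with each ON replicate left out in turn; its 3′ end overlaps Snx17 on the opposite strand (0.30, adjusted p = 0.0886). Zfp212 too was highest in OFF replicate 3, at 17.7 CPM against 11.9 and 10.8 CPM in the other OFF libraries, and without that library it did not pass (log2 fold change 0.33, adjusted p = 0.156).

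**Figure D2:**
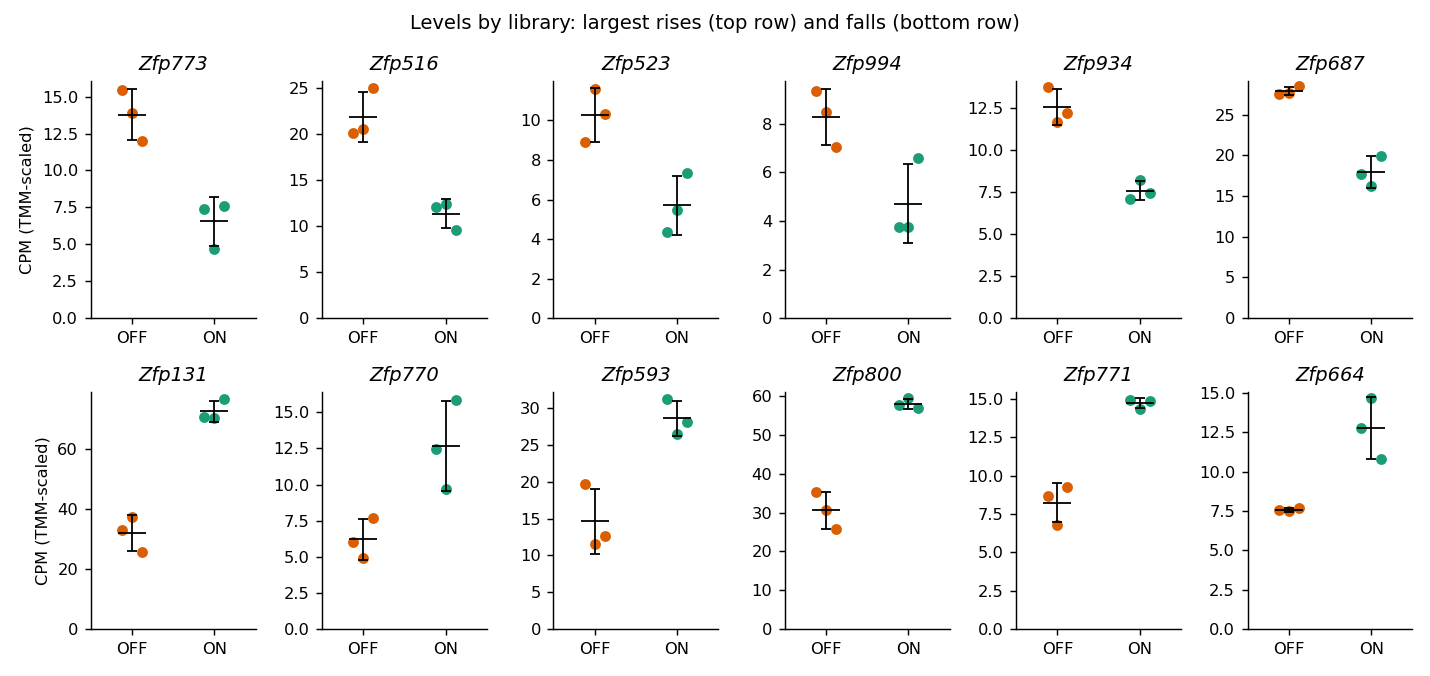
CPM (y axis, from 0) in each of 3 OFF and 3 ON libraries for the 6 largest rises (top) and the 6 largest falls (bottom) that passed; points are mice, the horizontal line is the mean and the bar is 1 SD. In each of the 12 panels no OFF value overlaps an ON value, as for Zfp131 with 25.6 to 37.2 CPM in OFF and 70.0 to 76.4 CPM in ON.

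Zfp proteins that act on RNA, translation or ribosomes were represented by 10 genes of a list of 11, drawn up with earlier results of these data known. Of these 10, 5 fell and none passed higher, with a median log2 fold change of -0.35; among rows with as many counts 19.9% fell. Zfp593, whose yeast counterpart Bud20 helps export the large ribosomal subunit, stood at 19.7, 11.6 and 12.7 CPM in OFF and at 31.2, 26.5 and 28.2 CPM in ON. It fell 1.956-fold (log2 fold change -0.97, SE 0.18, adjusted p = 7.04e-04). E130218I03Rik on the opposite strand covers 1627 of its exonic bases, 373 bases from the 3′ end, and that gene changed by -0.93 (adjusted p = 0.00121). The strand setting of the counting is not given in the sources used here, so the reads of the 2 genes cannot be told apart.

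Zfp598, the ubiquitin ligase that marks collided ribosomes, stood at 13.5, 11.2 and 13.5 CPM in OFF and at 21.4, 20.05 and 18.7 CPM in ON (log2 fold change -0.65, SE 0.14, adjusted p = 0.00242). Zfp106, an RNA-binding protein and the most abundant gene of this group to pass, had 100.4, 88.4 and 66.9 CPM in OFF and 131.0, 118.3 and 128.1 CPM in ON (log2 fold change -0.56, SE 0.13, adjusted p = 0.00472). The lincRNA Gm26899, which overlaps Zfp106 on the opposite strand 26691 bases from its 3′ end, changed by -0.56 (adjusted p = 0.0162). Zfp36 (tristetraprolin), which binds AU-rich elements and promotes the decay of mRNAs, had 9.55, 12.7 and 13.4 CPM in OFF and 16.7, 18.5 and 17.4 CPM in ON (log2 fold change -0.56, SE 0.16, adjusted p = 0.0119). Zfp330, a nucleolar protein, fell by 0.53 on the log2 scale (SE 0.14, adjusted p = 0.00763). In all 5 genes that fell, OFF and ON did not overlap; the call of Zfp36 was lost without ON replicate 2 (adjusted p = 0.0635) and that of Zfp330 without ON replicate 1 (adjusted p = 0.0514).

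Zfp622, whose yeast counterpart Rei1 works in the last steps of large-subunit maturation, did not follow Zfp593: it had 28.0, 29.4 and 34.2 CPM in OFF and 31.2, 29.2 and 27.0 CPM in ON (log2 fold change 0.07, 95% interval -0.18 to 0.31). Zfp207 (BuGZ), a partner of the spindle checkpoint protein Bub3, had 128.7, 135.9 and 138.8 CPM in OFF and 127.8, 144.4 and 160.0 CPM in ON (log2 fold change -0.10, 95% interval -0.32 to 0.12). Zfp326, Zfp318 and Zfp830 lay between -0.18 and 0.22 and did not pass either.

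Of 26 listed sequence-specific, chromatin and ubiquitin regulators, 20 were among the 125 genes: 2 rose and 6 fell, with a median of -0.16. Of rows with as many counts, 18.8% rose, 19.9% fell and 38.7% passed in all, so the share that passed was near that background. The falls included Zfp131. Zfp639 (ZASC1), a C2H2 transcription factor, had 17.9, 16.4 and 15.95 CPM in OFF and 26.6, 29.3 and 27.2 CPM in ON (log2 fold change -0.73, SE 0.12, adjusted p = 4.53e-04). Zfp410, known for sustaining transcription of the chromatin remodeller gene Chd4, had 17.5, 19.5 and 21.3 CPM in OFF and 27.0, 31.5 and 31.0 CPM in ON (log2 fold change -0.62, SE 0.13, adjusted p = 0.00198). Chd4 itself had 294.4, 273.4 and 203.2 CPM in OFF and 255.8, 253.3 and 263.6 CPM in ON, and its log2 fold change was -0.00312 (SE 0.13, adjusted p = 0.989). OFF replicate 3 was thus below, and the other OFF libraries above, all ON libraries for Chd4.

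Zfp568, a KRAB protein that represses a placental Igf2 transcript in mouse embryos, fell by 0.51 (SE 0.14, adjusted p = 0.0126). Without ON replicate 3 it no longer passed (adjusted p = 0.0585). Zfp281, a GC-box binding factor of pluripotent cells, fell by 0.50 (SE 0.16, adjusted p = 0.0281), and Zfp451, a SUMO ligase, fell by 0.43 (SE 0.14, adjusted p = 0.0265). The last 2 calls were lost in 3 and 4 of the 6 fits that leave out a mouse. Beside Zfp516, the gene that rose was Zfp687, which with Zfp592 and Zmynd8 forms a chromatin complex. It had 27.5, 27.6 and 28.5 CPM in OFF and 17.7, 16.2 and 20.0 CPM in ON (log2 fold change 0.64, SE 0.13, adjusted p = 0.00139). Its partner Zfp592 had 16.3, 14.8 and 16.6 CPM in OFF and 15.5, 15.4 and 16.9 CPM in ON, and the groups overlapped (adjusted p = 1.00). The 3′ end of Zfp687 overlaps Pi4kb on the opposite strand by 254 bases, and Pi4kb changed by 0.69 (adjusted p = 8.69e-04), so here too the reads of the pair cannot be told apart.

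The most abundant gene of all was Zfp91, a ubiquitin ligase and a target of cereblon-based drugs in human cells. It had 155.4, 155.3 and 133.8 CPM in OFF and 184.3, 169.7 and 167.1 CPM in ON. The groups did not overlap, but the gene did not pass (log2 fold change -0.23, approximate 95% interval -0.44 to -0.02, adjusted p = 0.1099). Zfp638, which silences unintegrated retroviral DNA through the HUSH complex in human cells, had 93.5, 90.7 and 75.1 CPM in OFF and 85.2, 96.2 and 90.7 CPM in ON (log2 fold change -0.07). Zfp292 and Zfp706, the other abundant genes that did not pass, had values of 0.18 and -0.28 on the log2 scale (adjusted p = 0.276 and 0.0826). Without OFF replicate 3 both passed, Zfp292 with 0.29 (adjusted p = 0.0200) and Zfp706 with -0.35 (adjusted p = 0.00848). Zfp335 and Zfp384, of which Zfp384 is a fusion partner in human acute lymphoblastic leukaemia, had non-overlapping groups and adjusted p of 0.0898 and 0.0969. Zfp335 passed without OFF replicate 1 (adjusted p = 0.0459), and Zfp384 passed by limma on the authors' log2 values (0.39, adjusted p = 0.0417). Pcif1 on the opposite strand shares 1107 exonic bases with Zfp335, up to its 3′ end, and changed by 0.06 (adjusted p = 0.762). The reads of Zfp335 and Pcif1 cannot be told apart either.

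The widest spread within a group was that of Zfp605, a KRAB gene (chromosome 5, 110110092 to 110129794, plus strand). It had 51.2, 39.0 and 16.9 CPM in OFF and 82.0, 61.2 and 69.8 CPM in ON. All OFF values were below all ON values, but OFF replicate 3 was far lower than the other 2, and the log2 fold change of -0.99 (SE 0.36) did not pass (adjusted p = 0.0750). Without OFF replicate 3 it was -0.65 and passed (adjusted p = 5.88e-04). The processed pseudogene Gm15484, which lies on the opposite strand and shares 132 exonic bases with Zfp605, changed by -0.94 (adjusted p = 0.0445). Zfp609 and Zfp507 were also lowest in OFF replicate 3, at 4.51 and 3.30 CPM, and did not pass.

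The KRAB pattern, a stretch of conserved residues of the box, was found in the coding sequence of 46 of the 125 genes. A box that departs from this pattern would be missed, so genes without the pattern cannot be taken to lack a KRAB box. Of these 46, 8 rose and 3 fell (Zfp777, Zfp930 and Zfp568), with a median of 0.17. That was 17.4% higher and 6.52% lower, against 18.8% and 19.9% of rows with as many counts. In all, 23.9% passed, against 38.7% of those rows, and these differences were not tested. Each of the 3 falls was lost in at least 1 fit that leaves out a mouse. That of Zfp930 was lost without OFF replicate 2 (adjusted p = 0.0635) and without ON replicate 2 (adjusted p = 0.0999). Of the 79 genes without it, 10 rose and 15 fell, with a median of 0.04. The number of C2H2 patterns ran up to 30 with a median of 9. Among the 54 genes with 10 or more, 10 rose (18.5%) and 4 fell (7.41%). Among the 67 with 1 to 9, 8 rose (11.9%) and 12 fell (17.9%). No C2H2 pattern was found in 4 genes, among them Zfp36, which has 2 CCCH fingers.

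Sequence shared between genes moved with the KRAB pattern. The 50-base windows in the last 500 transcribed bases were pooled over all protein-coding transcripts of each gene. In 19 genes, 10% or more of the pooled windows also occurred in another gene's transcript. Of these genes, 16 had the KRAB pattern, 7 rose and none fell (median 0.40). That was 36.8% higher and 0% lower, against 18.8% and 19.9% of rows with as many counts, without a test of the difference. Of the 30 KRAB genes with under 10% shared windows, 2 rose and 3 fell, and their median was 0.06. Leaving out the 19 genes gave 11 rises and 18 falls among 106 genes and a median of 0.04; this alternative was chosen after seeing the data. How reads that map to several places were counted is not given in the sources used here. Zfp97 and Zfp960, which share 88.9% and 86.3% of their windows, mostly with each other, had 70, 55 and 37 counts against 69, 57 and 38 counts in OFF, and 46, 57 and 38 against 47, 53 and 39 in ON. They cannot be read as 2 independent genes.

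**Figure D3:**
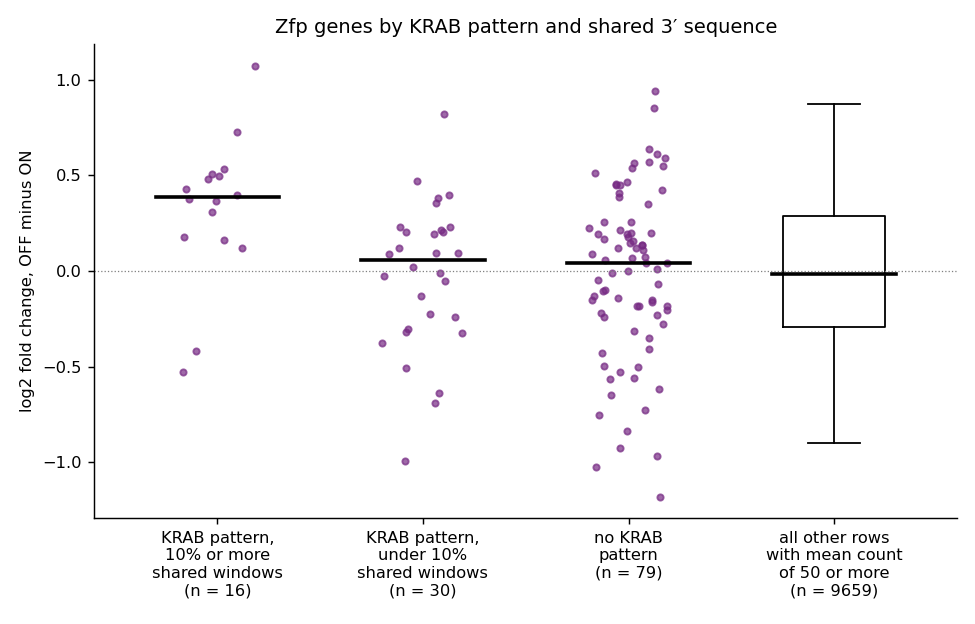
Log2 fold change (OFF minus ON, y axis) of Zfp genes with the KRAB pattern and 10% or more shared 3′ windows, with the KRAB pattern and under 10%, and without the pattern, beside all other rows with a mean count of 50 or more. Points are genes, black lines are medians (0.39, 0.06, 0.04 and -0.02), and the box spans the quartiles with whiskers at the percentiles 5 and 95; the 16 KRAB genes with shared windows lie mostly above 0.

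Of 8 groups of 3 or more genes that lie within 500 kb of the next, 1 held more than 2 genes that passed in the same direction. On chromosome 4 between 146449023 and 147809788, 6 KRAB genes were counted and 4 rose: Zfp993 (0.54, adjusted p = 0.00491), Zfp991 (0.50, adjusted p = 0.00502), Zfp984 (0.43, adjusted p = 0.00839) and Zfp992 (0.40, adjusted p = 0.0158). Zfp991, among the most abundant of the 125 genes, stood at 86.1, 96.1 and 73.8 CPM in OFF and at 63.95, 55.6 and 61.8 CPM in ON. Zfp985, with 21.6% shared windows, had a value of 0.40 and did not pass. Zfp979, with 36.8% shared windows, went the other way at -0.53 (adjusted p = 0.0682). Of the windows at their 3′ ends, 93.6% in Zfp993, 63.2% in Zfp991 and 32.8% in Zfp984 occurred in another gene, in the first 2 cases Zfp992 and each other among others, so these rises are uncertain as separate results. None of the windows of Zfp992 itself was shared, but its call was lost in 4 of the 6 fits that leave out a mouse (without OFF replicate 2 or any ON replicate, adjusted p up to 0.0906), and that of Zfp984 without ON replicate 2 (adjusted p = 0.0538).

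In 2 other groups, genes that passed in opposite directions lay side by side. On chromosome 7 between 127233061 and 127345589, Zfp771 and Zfp553 fell (-0.84 and -0.50) while Zfp768 rose (0.45, adjusted p = 0.0308). On chromosome 6, Zfp212 rose (adjusted p = 0.0382) and Zfp777, which had 4.78, 4.57 and 4.62 CPM in OFF and 6.28, 7.97 and 8.31 CPM in ON, fell (-0.69, adjusted p = 0.0167). The call of Zfp771 held in all 14 alternative fits, but leaving out a mouse ended that of Zfp768 in 4 of 6 fits (adjusted p up to 0.124, without ON replicate 2) and those of Zfp553 and Zfp777 in 3 each (up to 0.0928 and 0.0759). With DESeq2, Zfp768, Zfp553, Zfp777 and Zfp212 did not pass (adjusted p = 0.129, 0.0908, 0.0630 and 0.0899). Zfp414 on chromosome 17 rose by 0.55, but it shares 705 exonic bases on the same strand with Gm20507, which changed by 1.19 (adjusted p = 1.64e-05). Zfp738 on chromosome 13, with 14.8% shared windows, rose by 0.48 (adjusted p = 0.0340). The calls of Zfp414 and Zfp738 were each lost in 6 of 14 alternative fits, 4 of them without 1 mouse (adjusted p up to 0.132 and 0.170, both without ON replicate 2). In the 2 groups led by Zfp24 and Zfp266 no gene passed.

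Promoters could be matched for 99 genes, credited to RefSeq on GRCm38.p6. CpG dinucleotides numbered 10 as a median in the 14 promoters of genes that rose (range 4 to 35), 23.5 in the 14 of genes that fell (range 14 to 51) and 15 in the 71 that did not pass. The GC content was 53.0%, 64.3% and 54.7%. In the promoters printed above, Zfp773 has 7 CpG and Zfp131 has 36, but the order is not strict: Zfp523, which rose, has 34 and Zfp800, which fell, has 14. Among other rows with as many counts the same medians were 18 (1347 promoters of genes that rose), 24 (1384 that fell) and 22 (3895 that did not pass). The gap ran alongside the KRAB pattern, since promoters of genes with the pattern had a median of 11 CpG and those of genes without it 19.5. Within genes without the pattern it was 15 in the 9 that rose and 23 in the 13 that fell.

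**Figure D4:**
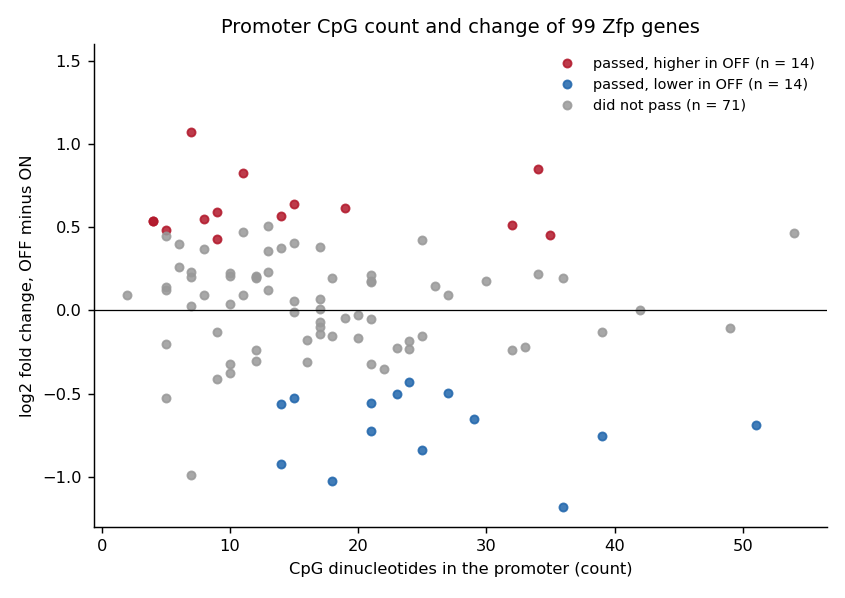
CpG dinucleotides in the 300-base RefSeq promoter (x axis, count) against log2 fold change (OFF minus ON, y axis) for 99 Zfp genes, each point a gene. The 14 genes that fell (blue) have 14 to 51 CpG, whereas 9 or fewer occur in several of the 14 that rose (red), with 3 of these above 30.

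Motifs were searched on both strands. The E-box CACGTG was found in 1 of 14 promoters of genes that rose (Zfp994) and 0 of 14 of genes that fell. It was in 7.07% of the 99 and 7.24% of all 27025 promoters. Among other rows with as many counts it was in 9.65% of promoters of genes that rose, 14.6% that fell and 10.7% that did not pass. The FOXO motif GTAAACA and the ATF4 composite motif TGATGCA were in 0 of the 99, against 3.55% and 3.2% of all promoters. In the same 3 classes of other rows with as many counts, the FOXO motif was in 2.52%, 1.66% and 2.8%. The ATF4 composite motif was in 2.08%, 2.53% and 1.46% of them.

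The partners that KRAB proteins recruit were described by their counts. Of 35 tested genes of this list, also drawn up with earlier results known, 1 rose and 9 fell, with a median of -0.16. This was 28.6% called, against 34.8% of all tested rows, and 25.7% lower, against 17.5% of all tested rows. Of rows with a mean count of 50 or more, which most of the list reached, 38.7% were called and 19.9% fell. These differences were not tested. Trim28, the scaffold that binds the KRAB box, had 109.5, 86.3 and 97.2 CPM in OFF and 118.7, 120.4 and 122.2 CPM in ON (log2 fold change -0.30, SE 0.11, adjusted p = 0.0476), a call that was lost in 9 of 14 alternative fits (adjusted p up to 0.188, without OFF replicate 2). Setdb1, the H3K9 methyltransferase that Trim28 brings, had 88.5, 95.01 and 130.6 CPM in OFF and 123.5, 112.9 and 127.9 CPM in ON and did not pass (log2 fold change -0.21, adjusted p = 0.247). It was highest in OFF replicate 3, and without that library it passed (log2 fold change -0.40, adjusted p = 0.00185). Suv39h2, another H3K9 methyltransferase, fell by 0.82 (adjusted p = 4.87e-04), and Cbx3, an HP1 protein, fell by 0.47 (adjusted p = 0.00545). Mta1, also of this list, fell by 0.71 (adjusted p = 5.73e-04). Atf7ip, the partner that stabilises Setdb1, was the gene that rose (log2 fold change 0.48, adjusted p = 0.00773); its call was lost without OFF replicate 2 (adjusted p = 0.0521) and without ON replicate 1 (adjusted p = 0.0610). The KRAB proteins Zfp445, which protects imprints, and Zfp809, which silences murine leukaemia virus sequences, had values of 0.21 and 0.09 and did not pass; without OFF replicate 3, Zfp445 passed (log2 fold change 0.32, adjusted p = 0.0159).

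Just above the limit of 50 mean counts were Zfp97 (50.5), Zfp960 (50.5) and Zfp65 (52.8), and just below it Zfp219 (47.8), Zfp954 (47.8) and Zfp275 (46.8). Of the 376 Zfp rows, another 129 with lower means could be tested: 14 rose and 5 fell, with a median of 0.19; of all tested rows under 50 counts, 13.2% rose and 11.5% fell. With 100 or more mean counts, 12 rose and 13 fell among 62 of the 125 genes (all rows at that depth 19.3% and 21.0%), and with 50 to 99, 6 rose and 5 fell among 63 (363 and 334 of all 2114 such rows). In related families with a mean count of 50 or more, where 18.8% of all rows rose and 19.9% fell, 2 rose and 2 fell of 24 Zbtb genes, 3 rose and none fell of 6 Zkscan and Zscan genes, 1 rose and 2 fell of 12 Zc3h genes, and 2 rose and 1 fell of 8 Klf genes.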

How the data were processed

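The authors' deposited table of raw counts was used. Per the labels' protocols, libraries were made with Lexogen's QuantSeq 3′ kit; the submitters' processing notes name mm10, the aligner HISAT2 2.0.4, Subread 1.6.3 (featureCounts), limma 3.42.2 and cutadapt 1.9.1. The authors' second deposited table, of log2 values, served as an alternative. The 1105 unnamed rows (0.145% to 0.172% of counts) were left out.

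Counts were tested in R 4.3.3 with edgeR 4.0.16 (filterByExpr, TMM, robust quasi-likelihood, no covariate), OFF minus ON, with Benjamini-Hochberg adjustment over all 13652 tested rows at 0.05. On simulated counts the procedure recovered 49 of 100 changes of 1.5-fold and 93 of 100 of 2-fold. It made 13 false calls in 13233 tested rows. A gene that did not pass may thus still have changed by 1.5-fold. Intervals are 1.96 SE. Values are given per mouse, and an exact permutation of 3 against 3 cannot go below a two-sided p of 0.1. Each replicate is a separate mouse of 1 cohort injected with 1 line, so p-values measure the spread between mice.

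Positions, overlaps and coding sequences are from GENCODE M21 (GRCm38); all 125 symbols matched. KRAB, C2H2 and CCCH patterns were counted in translated coding sequences with Python 3.11.15 and Biopython 1.88; the KRAB pattern occurred in 290 of 21901 coding genes, 273 of them with a C2H2 pattern.

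The genes and lists were chosen with earlier results of these data known. Named were the 10 largest called changes in each direction without overlap, the 5 most abundant genes (in all, and among those that did not pass), listed genes, cluster leaders and the 3 genes with the widest spread within a group.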

Additional observations from a re-analysis of the deposited data

How the results depend on the processing

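Of 36 calls, 19 (9 higher, 10 lower) were kept in each of the 14 alternative fits in which the gene was tested, 17 were lost in at least 1 fit that leaves out a mouse, and no called gene changed sign. Leaving out 1 mouse gave 11 (without ON replicate 2) to 23 rises (without OFF replicate 3), 12 to 21 falls, and medians of 0.0415 (without OFF replicate 1), 0.0467 (without OFF replicate 3) and up to 0.0895, against 0.0938. With calls limited to 1.5-fold, 8 genes rose and 11 fell, and 1521 of all rows fell. Without the 19 genes with shared windows, 11 rose and the median was 0.0405; without 11 genes that overlap a tested gene within 1 kb of the 3′ end, 15 rose and 17 fell. DESeq2 1.42.0 gave 13 rises and 15 falls, upper-quartile scaling 21 and 18, and the median of all tested rows was at most 0.0420 in every alternative fit. The cause of these shifts was not tested.

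The replicate numbers carry no stated pairing and same-numbered libraries did not deviate together (correlations 0.0348, -0.0759 and -0.0504). With a replicate block, 17 rose and 19 fell; Zfp605 passed (adjusted p = 0.00992). Zfp605 also passed with a stricter filter of 10 CPM in 3 libraries (adjusted p = 0.0167).

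Genes near 0 that did not pass changed sign. Zfp592 gave -0.000537 with DESeq2's size factors, -0.0181 with no filter, -0.00749 by DESeq2, -0.00108 with the block and -0.00881 by limma on the authors' table, and -0.0270 to 0.0498 in the fits that leave out a mouse. In those fits Zfp644 ranged over -0.0112 to 0.137, Zfp24 over -0.0105 to 0.230, Zfp622 over -0.0180 to 0.126, Zfp638 over -0.131 to 0.0262, Zfp809 over -0.0186 to 0.164 and Zfp318 over -0.202 to 0.0673.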
